A study of Mus musculus with 6 samples.

Results

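Zfp82, Gm26920, Zfp14, Zfp566, Zfp260, Zfp382 and Zfp568 are 7 of the 34745 rows in a gene expression table of P19 cells, and all lie near 30 Mb of mouse chromosome 7. They were picked by name. Zfp82 was chosen for its difference between treated and untreated cells, and the others for lying beside or across it, so their differences between the groups are described with no p-value, and the number of members called in fits over the whole table is given without drawing anything from it. P19 is a mouse embryonal carcinoma line, a tumour-derived line with features of early embryonic cells. RNA was sequenced from 3 libraries of P19 cells treated with the peptide PDTLN1 and 3 libraries of untreated P19 cells. The labels give no dose, no duration and no vehicle for the control. All 6 libraries share the line and the culture medium, and nothing in the labels says that they came from separate cultures, so the spread between libraries may be technical.

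Zinc finger proteins of this kind bind DNA through repeated finger motifs that each fold around a zinc ion. Many also carry a KRAB domain, which recruits the co-repressor TRIM28 (the product of Trim28) and through it the histone methyltransferase SETDB1 (the product of Setdb1), so that bound sites are packed into heterochromatin. In mammals their genes lie in tandem clusters, and KRAB zinc finger proteins are best known in early embryonic cells for silencing retroelements. Zfp568, Zfp14, Zfp82, Zfp566 and Zfp382 are KRAB zinc finger genes, and Zfp260 encodes a protein with fingers and no KRAB domain. Gm26920 has a predicted name. In the GENCODE annotation of build GRCm38 it is a read-through, a transcript that starts in 1 gene and continues into the next, and its type is nonsense-mediated decay, the pathway that destroys transcripts whose reading frame stops early.

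The 3 rows Zfp82, Gm26920 and Zfp566 overlap on the minus strand, and the other members overlap no row of the table. Zfp566 (ENSMUSG00000078768) runs from 30077337 to 30090527, Gm26920 (ENSMUSG00000058447) from 30056034 to 30090410, and Zfp82 (ENSMUSG00000098022) from 30054489 to 30072900, in coordinates of GRCm38. The Gm26920 row shares 16867 bases with the Zfp82 row and 13074 bases with the Zfp566 row, while Zfp82 and Zfp566 do not meet. Gm26920 has 9 annotated exons, of which 3 lie within exons of Zfp566 and 6 within exons of Zfp82. All 2374 exon bases of Gm26920 are therefore exon bases of a neighbour, 310 of Zfp566 and 2064 of Zfp82. Its start lies 117 bases inside the Zfp566 transcript and 17510 bases upstream of the annotated start of Zfp82.

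**Figure D1:**
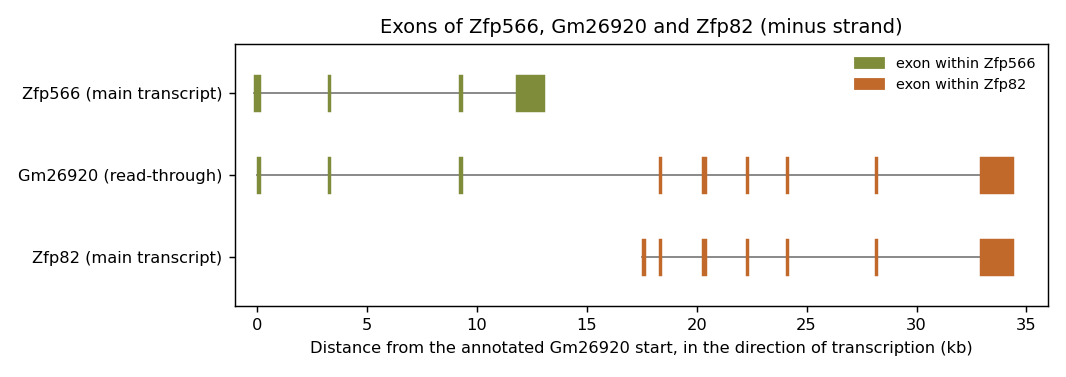
Annotated exons of the main transcripts of Zfp566 and Zfp82 and of the Gm26920 transcript, drawn as boxes by distance in kilobases from the Gm26920 start. The 9 Gm26920 exons repeat 3 exons of Zfp566 and 6 of Zfp82, and the join between these stretches is the feature that neither neighbour has.

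Of the 8 splice junctions of Gm26920, 1 occurs in no annotated transcript of Zfp82 or Zfp566. It joins the exon of Zfp566 that ends at 30081091 to the exon of Zfp82 that begins at 30072139. It is shown here with the Zfp566 and Zfp82 junctions that share each of its sides, because these are the bases by which a read can be given to Gm26920 alone. Each sequence has 15 bases of the upstream exon in lower case and 15 bases of the downstream exon in capitals, 5′ to 3′ on the minus strand, from the GENCODE transcripts.
Gm26920: acctgctctcaatggGCTGGACAAGGCTCC
Zfp566: acctgctctcaatggTCCTGGAGTCAAGAT
Zfp82: gtgaacttagtgaagGCTGGACAAGGCTCC
Gm26920 has the left side of the Zfp566 junction and the right side of the Zfp82 junction. Cut into all runs of 50 bases, its transcript gave 2325 sequences, of which 2016 also occur in Zfp82 transcripts and 262 in Zfp566 transcripts. The 47 left, or 2.02%, occur in no other gene of the annotation on either strand. The same share was 67.3% for Zfp82, 84.4% for Zfp566, 98.9% for Zfp260, 99.9% for Zfp568 and 100.0% for Zfp14 and Zfp382. Neither the read length nor the counter's rule for reads that match several rows is stated in the sources.

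The transcripts of Gm26920 and Zfp82 share their last exons but begin at different places. Gm26920 starts within the exon that opens Zfp566, and Zfp82 has its own start. The windows of Zfp566 and Zfp82 are shown for that reason, from 250 bases before to 50 bases after the RefSeq start of each gene in build GRCm38.p6. Capitals mark a run of 13 bases described below. The Zfp566 window is chr7:30090461-30090760 and the Zfp82 window is chr7:30072774-30073073, both on the minus strand. The Gm26920 start, at 30090410, lies just beyond the end of the Zfp566 window. The RefSeq start of Zfp82 is 30072823 and the GENCODE start is 30072900, so its bases before the RefSeq start include annotated Zfp82 exon.
Zfp566: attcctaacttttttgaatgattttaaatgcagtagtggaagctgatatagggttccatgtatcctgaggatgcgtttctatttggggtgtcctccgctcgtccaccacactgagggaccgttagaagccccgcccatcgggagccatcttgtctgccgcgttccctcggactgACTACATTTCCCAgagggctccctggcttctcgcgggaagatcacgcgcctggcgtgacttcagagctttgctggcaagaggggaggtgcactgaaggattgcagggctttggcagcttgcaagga
Zfp82: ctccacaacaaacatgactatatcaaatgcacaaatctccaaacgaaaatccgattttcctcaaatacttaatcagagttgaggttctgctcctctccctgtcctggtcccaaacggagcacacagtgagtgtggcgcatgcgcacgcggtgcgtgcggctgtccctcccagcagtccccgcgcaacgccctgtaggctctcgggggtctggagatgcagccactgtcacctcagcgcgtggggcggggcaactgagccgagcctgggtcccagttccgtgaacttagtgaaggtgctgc
The Zfp566 window was 54.3% G or C with 14 CpG pairs and the Zfp82 window 57.7% with 18, against medians of 52.7% and 7 over 32851 windows. RefSeq windows were found for 5 of the 7 members. The longest run of bases held by at least 3 of them, read on either strand, was ACTACATTTCCCA. It stood 76 bases before the RefSeq start of Zfp566, 14 bases before that of Zfp14 and, on the opposite strand, 30 bases before that of Zfp260. The RefSeq start of Zfp260 is 30095076 and its row begins at 30094777, so there the run lies within the row.
Zfp14: caccatggACTACATTTCCCAcaggcctct
Zfp566: tcggactgACTACATTTCCCAgagggctcc
Zfp260: gagacttcTGGGAAATGTAGTtcacagtta
These letters were not in the Zfp82 and Zfp382 windows. Over all windows, 143 of 32851 held the run on either strand (0.435%), and 25 of 365 windows of other genes named Zfp and a number did (6.85%). The run was found in these sequences and then counted, so its presence is a description and no site is claimed.

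The libraries were of even depth, with total gene counts of 10381307 to 11663081. Levels are given in CPM, each count scaled to its library's total after TMM normalization of the library sizes. The pluripotent markers summed to 2821 to 2962 CPM in PDTLN1 libraries and 2931 to 3051 CPM in controls, with all 7 detected. The protocol for RNA extraction names retinas as its material. Of 5 retinal markers, Crx and Arr3 had 0 counts in every library, and the 5 together reached at most 0.695 CPM in PDTLN1 libraries and 0.576 CPM in controls. Fibroblast markers summed to 141 to 184 CPM in PDTLN1 libraries and 148 to 161 CPM in controls, and neural markers to 63.7 to 87.5 CPM in PDTLN1 libraries and 78.4 to 105 CPM in controls. Libraries did not group by treatment on the leading principal component, where PDTLN1 2 and 3 lay at -23.5 and -11.7 beside control 1 at -17.0, and PDTLN1 1 lay at 18.3 beside control 2 and 3 at 14.2 and 19.8.

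Zfp82 and its read-through partner carried opposite values in the treated and untreated cells. Zfp82 had 82, 94 and 80 counts in PDTLN1 libraries 1, 2 and 3, against 23, 37 and 51 counts in control libraries 1, 2 and 3. Gm26920 had 0, 5 and 9 counts in PDTLN1 libraries 1, 2 and 3, against 52, 74 and 54 counts in control libraries 1, 2 and 3. For both rows the groups did not overlap, with every PDTLN1 library above every control library for Zfp82 and below it for Gm26920. Zfp82 averaged 7.65 ± 0.714 CPM in PDTLN1 libraries and 3.42 ± 1.18 CPM in controls (SD, n = 3 each), or a log2 fold change of 1.15 (SE 0.25). Gm26920 averaged 0.401 ± 0.385 CPM in PDTLN1 libraries and 5.59 ± 1.17 CPM in controls (SD, n = 3 each), or a log2 fold change of -3.72 (SE 0.53). Its 0 counts in PDTLN1 library 1 allow a level of up to 0.290 CPM, taking 3 counts as the limit, and the fitted size depends on the small counts of the PDTLN1 libraries.

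Added together, the counts of Zfp82 and Gm26920 were close to level between the groups. The sum was 82, 99 and 89 counts in PDTLN1 libraries 1, 2 and 3, against 75, 111 and 105 counts in control libraries 1, 2 and 3. The PDTLN1 sums lay within the range of the control sums. The sum averaged 8.05 ± 0.510 CPM in PDTLN1 libraries and 9.01 ± 1.64 CPM in controls (SD, n = 3 each), and a fit with both rows merged gave a log2 fold change of -0.16 (SE 0.17). With Zfp566 merged as well, the 3 rows together averaged 26.9 ± 0.732 CPM in PDTLN1 libraries and 28.3 ± 3.14 CPM in controls (SD, n = 3 each), with a log2 fold change of -0.07 and an SE of 0.11. What differed was how the sum was divided between the rows. In bulk RNA, fewer cells that express a gene and less RNA per cell cannot be told apart, here or for any other member.

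Gm26920 held 0%, 5.05% and 10.1% of the summed Zfp82 and Gm26920 counts in PDTLN1 libraries 1, 2 and 3. The exact Clopper-Pearson 95% intervals reached from 0% to 4.40%, from 1.66% to 11.4% and from 4.73% to 18.3%. In control libraries 1, 2 and 3 it held 69.3%, 66.7% and 51.4%, with intervals from 57.6% to 79.5%, from 57.1% to 75.3% and from 41.5% to 61.3%. These intervals cover counting error only and say nothing of the spread between separate samples, and the counter's division of reads between overlapping rows is not part of them. A different use of both starts and a different division of shared reads cannot be told apart with these counts.

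**Figure D2:**
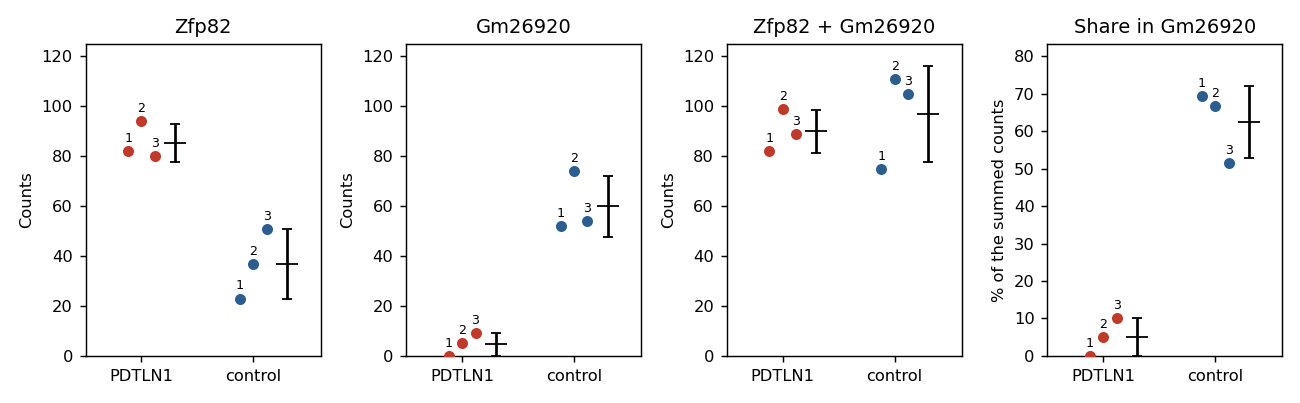
Counts of Zfp82, of Gm26920 and of their sum, and the percentage of the sum in Gm26920, with a point for each library labelled by its replicate number and a bar for the mean and SD (n = 3 each). PDTLN1 libraries have 80 to 94 Zfp82 counts against 23 to 51 in controls and 0 to 9 Gm26920 counts against 52 to 74, while the sums overlap at 82 to 99 and 75 to 111.

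Zfp566, whose opening exons Gm26920 repeats, was nearly level. It had 198, 217 and 216 counts in PDTLN1 libraries 1, 2 and 3, against 186, 223 and 213 counts in control libraries 1, 2 and 3. The groups overlapped, with means of 18.8 ± 0.358 CPM in PDTLN1 libraries and 19.3 ± 1.54 CPM in controls (SD, n = 3 each). Its log2 fold change was -0.04 (SE 0.11), and it was -0.37 with an SE of 0.11 when the Gm26920 counts were added to it.

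Annotated rows often overlap in the table, and some overlapping rows had opposite differences beyond a log2 fold change of 1. Among the genes that passed the filter on low counts, 1810 pairs of rows overlapped by locus. Strand and shared exons were not considered. Of all 13836 genes tested, 59 (0.426%) had a log2 fold change beyond 1 in either direction. In 6 of the 1810 pairs (0.331%) 1 row had a log2 fold change above 1 and the other below -1. The first share counts single genes and the second counts pairs, so they cannot be compared. The Zfp82 and Gm26920 pair was among the 6, and so were pairs of clustered protocadherin genes. Pcdhgc5 was paired with both Pcdhgb5 and Pcdhga8. It had 105 counts in PDTLN1 library 3 and 15 to 30 in the others. Pcdhgb5 had 156 counts in control library 1 and 7 to 15 in the others. The groups overlapped in counts for every protocadherin row of these pairs. The distance of 4.87 log2 units between Zfp82 and Gm26920 was the widest of all 1810 pairs, the next being 4.38. The pair was chosen with these values known, so its place in the order is a description.

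Zfp568 lies at lower coordinates than the trio on the plus strand, from 29983955 to 30028282. In mouse embryos its protein silences a placental form of Igf2, the gene of a fetal growth factor. It had 1723, 2146 and 1948 counts in PDTLN1 libraries 1, 2 and 3, against 1797, 1932 and 1948 counts in control libraries 1, 2 and 3. The values overlapped closely, with means of 173 ± 11.5 CPM in PDTLN1 libraries and 176 ± 4.52 CPM in controls (SD, n = 3 each) and a log2 fold change of -0.02 (SE 0.06). Igf2 had 540, 1621 and 1284 counts in PDTLN1 libraries 1, 2 and 3, against 746, 822 and 811 counts in control libraries 1, 2 and 3. These are counts of the whole gene and do not separate its placental form. PDTLN1 library 1 was the lowest of all 6 for Igf2 and the other two PDTLN1 libraries the highest, and the gene did not pass edgeR's test (log2 fold change 0.45, SE 0.36, adjusted p 0.989).

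Zfp260 (plus strand, 30094777 to 30107622) had the widest spread between libraries of a group among the members. In rat heart muscle cells its protein is known as a partner of Gata4 in switching on Nppa, the gene of a cardiac hormone. It had 438, 150 and 387 counts in PDTLN1 libraries 1, 2 and 3, against 434, 653 and 110 counts in control libraries 1, 2 and 3. PDTLN1 library 2 and control library 3 were low, at 13.0 and 9.86 CPM, and the other 4 libraries lay at 33.1 to 61.2 CPM. These 2 libraries lay at the opposite ends of the leading principal component, at -23.5 and 19.8. The means were 29.5 ± 15 CPM in PDTLN1 libraries and 37.6 ± 25.9 CPM in controls (SD, n = 3 each), and the log2 fold change of -0.35 had an SE of 0.79. Without control library 2 the log2 fold change was 0.20, so no direction can be given.

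Among 11253 tested genes with a mean of at least 5 CPM, 30 (0.267%) had a larger spread of log2 CPM within groups than Zfp260, whose SD was 1.14 against a median of 0.129. No row of the table overlaps Zfp260. Of its 5925 runs of 50 bases, 64 occur in other genes. The cause of the spread was not tested. Of the genes tied to it in rat heart cells, Gata4 had 2, 9 and 7 counts in PDTLN1 libraries 1, 2 and 3, against 2, 8 and 3 counts in control libraries 1, 2 and 3. Nppa had 0 counts in 5 of the 6 libraries and 2 in control library 3, and neither gene had enough counts to test.

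Zfp382 (plus strand, 30121942 to 30134665) had 122, 97 and 90 counts in PDTLN1 libraries 1, 2 and 3, against 75, 122 and 99 counts in control libraries 1, 2 and 3. The groups overlapped, with means of 9.31 ± 2.20 CPM in PDTLN1 libraries and 9.17 ± 2.14 CPM in controls (SD, n = 3 each) and a log2 fold change of 0.02 (SE 0.22). Its 3 lowest libraries were PDTLN1 2 and 3 and control 1, at 8.43, 7.69 and 7.20 CPM. Those are the 3 libraries on the negative side of the leading principal component. Control 3 came next, close by at 8.87 CPM. The same 3 libraries were the lowest for the neighbouring zinc finger genes Zfp84, Zfp940, Zfp383 and Zfp420. They were not for Zfp30, Zfp790, Zfp27, Zfp74 and Zfp146. Zfp84 had 20.9, 21.7 and 19.2 CPM in PDTLN1 2 and 3 and control 1, against 28.6 to 34.1 CPM in the others. The part of the leading component in these levels was not tested.

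Zfp14 had few counts in either group, with 3, 7 and 15 counts in PDTLN1 libraries 1, 2 and 3, against 7, 7 and 5 counts in control libraries 1, 2 and 3. The PDTLN1 libraries held both the lowest and the highest value. The row covers 30038053 to 30044734, while the GENCODE gene, with 3 transcripts, runs from 30036359 to 30051380. The length behind its FPKM was 1506 bases, close to the 1503 coding bases, and it did not pass the filter on low counts.

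**Figure D3:**
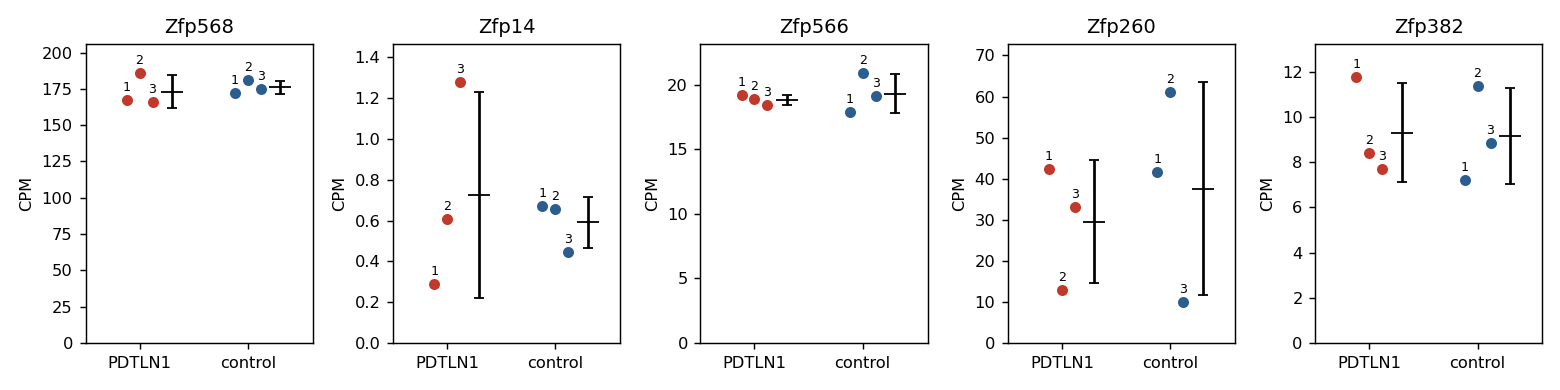
CPM of Zfp568, Zfp14, Zfp566, Zfp260 and Zfp382 by library, with a point for each library labelled by its replicate number and a bar for the mean and SD (n = 3 each). The groups overlap in every panel, and Zfp260 has 2 low libraries, PDTLN1 2 and control 3, at 13.0 and 9.86 CPM.

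Per length, Zfp568 was the most abundant member, at 14.7 ± 0.670 FPKM over the 6 libraries (SD, n = 6). FPKM is the count per kilobase of gene length and per library size, as deposited. Zfp566 followed at 9.37 ± 0.50 FPKM, Zfp382 at 3.56 ± 0.740, Zfp260 at 3.00 ± 1.74, Gm26920 at 1.26 ± 1.24, Zfp82 at 0.449 ± 0.201 and Zfp14 at 0.438 ± 0.226 FPKM (SD, n = 6 each). Zfp568 and Zfp566 stood apart from their neighbours in this order, with ranges of 14.0 to 15.7 and 8.76 to 10.3 FPKM. From Zfp382 on, each gene's range over the libraries overlapped that of the next. Gm26920 and Zfp82 changed places with the group. In PDTLN1 libraries Gm26920 averaged 0.169 ± 0.163 FPKM and Zfp82 0.621 ± 0.0560 FPKM, and in controls Gm26920 averaged 2.35 ± 0.492 FPKM and Zfp82 0.277 ± 0.0960 FPKM (SD, n = 3 each).

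The length behind the FPKM of Zfp82 was 12307 bases, or 2.04 times the 6041 bases that its annotated exons cover once. For Gm26920, with 1 transcript, the length was 2374 bases and the ratio 1.00. Zfp260 had a ratio of 1.92, Zfp568 of 1.61, Zfp382 of 1.29 and Zfp566 of 1.18, so FPKM understated the level per exon base most for Zfp82. Per kilobase of exon covered once, in CPM, Zfp82 averaged 0.916 ± 0.410 and Gm26920 1.26 ± 1.24 over the 6 libraries (SD, n = 6 each). On that scale Zfp260, at 5.79 ± 3.36, stood before Zfp382, at 4.59 ± 0.963, with overlapping ranges.

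**Figure D4:**
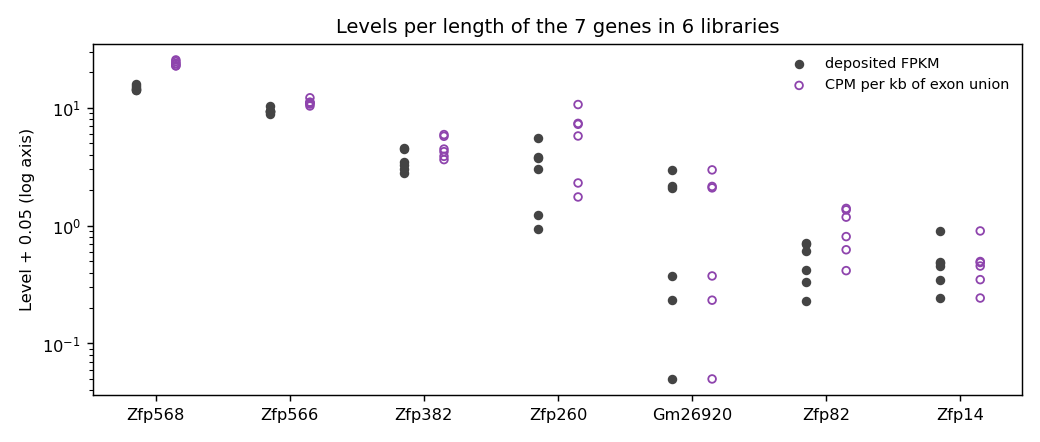
Levels of the 7 genes in the 6 libraries on a log axis after adding 0.05, as deposited FPKM (filled) and as CPM per kilobase of exon covered once (open). Zfp568 stands above the others on both scales, and Zfp566 stands above the rest in FPKM. Per kilobase of exon, Zfp260 in control library 2 (10.6) lies above the lowest Zfp566 value (10.3, control library 1). Gm26920 spreads from 0 to 2.92 FPKM.

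Set against the whole table, 0 of the 6 members with enough counts passed edgeR's quasi-likelihood test at an adjusted p under 0.05, where 0.0217% of 13836 genes did. At an unadjusted p under 0.05 edgeR gave 2 of the 6 members and 552 genes in all. DESeq2's Wald test called 1 of the 7 members, Gm26920, where it called 0.0607% of 16483 genes. The groups did not overlap in CPM for 2 of the 6 members, Zfp82 and Gm26920, where this held for 9.79% of the genes. The members were chosen with this comparison known, so nothing is read from these counts.

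The zinc finger genes to both sides were not called. Of 107 other rows within 1 Mb of the members, 58 had enough counts, and edgeR called 0, with 2 at an unadjusted p under 0.05 and 0 called by DESeq2. Over all genes, edgeR called 0.0217% and DESeq2 0.0607%, and 552 of 13836 had an unadjusted edgeR p under 0.05, so 0 calls here say little. Their log2 fold changes ran from -0.69 to 0.48 with a median of -0.04, against -0.00 for all genes tested. Zfp27, a zinc finger gene at lower coordinates than Zfp568, had the smallest p of the neighbours. It had 123, 121 and 139 counts in PDTLN1 libraries 1, 2 and 3, against 131, 175 and 291 counts in control libraries 1, 2 and 3, with control library 3 far above the rest (log2 fold change -0.69, SE 0.25, edgeR adjusted p 0.989). Capns1, the small regulatory subunit of calpain proteases, had a log2 fold change of 0.22 (SE 0.09), and Ppp1r14a, an inhibitor of myosin phosphatase, one of -0.44 with an SE of 0.21 (edgeR adjusted p 0.989 for both).

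**Figure D5:**
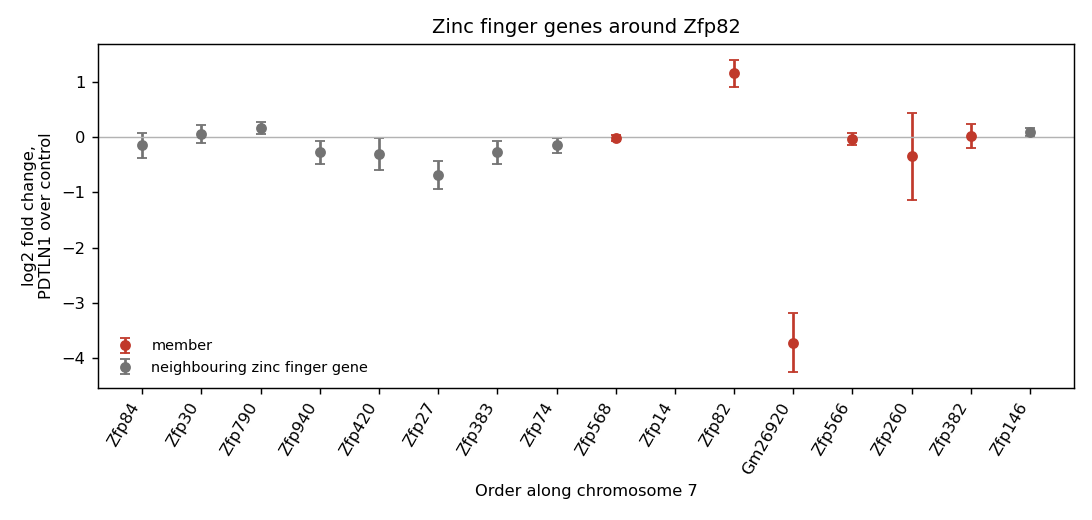
Log2 fold change of PDTLN1 over control with its SE for the members and the neighbouring zinc finger genes, in their order along chromosome 7. Zfp82 lies at 1.15 and Gm26920 at -3.72, the other points lie between -0.69 and 0.16, and Zfp14 has no point because its counts were too low to fit.

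Across the genome, 309 of 337 other rows named Zfp and a number had enough counts, and edgeR called 0 of them, with 15 at an unadjusted p under 0.05, where 552 of all 13836 genes were, and 0 called by DESeq2. Over all genes, edgeR called 0.0217% and DESeq2 0.0607%. Of the 309, 122 lay above 0 and 187 below, and the middle value of the log2 fold changes was -0.05. Over all genes tested, 6878 lay above 0 and 6958 below, with a middle value of -0.00. Genes measured in the same 6 libraries are not independent, and the difference in split was not tested. The smallest p-values belonged to Zfp26, Zfp426 and Zfp108. Zfp26 averaged 91.9 ± 1.02 CPM in PDTLN1 libraries and 77.3 ± 5.20 CPM in controls, Zfp426 31.3 ± 3.50 CPM in PDTLN1 libraries and 19.5 ± 6.10 CPM in controls, and Zfp108 1.05 ± 0.105 CPM in PDTLN1 libraries and 1.95 ± 0.193 CPM in controls (SD, n = 3 each). These 3 genes were taken for their small p, so groups that do not overlap, as in 9.79% of all genes tested, are no further finding, and their edgeR adjusted p was 0.989 each.

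Co-repressor and heterochromatin genes that work with KRAB zinc finger proteins were expressed in all libraries. Their list also holds the zinc finger genes Zfp57 and Zfp809, which are counted among the other rows named Zfp and a number as well. All 24 listed genes had enough counts, and edgeR called 0 of them, with 0 at an unadjusted p under 0.05 and 0 called by DESeq2. Over all genes, edgeR called 0.0217% and DESeq2 0.0607%, and 552 of 13836 had an unadjusted edgeR p under 0.05. With shares this low, 0 calls in a list of this size say little. Their log2 fold changes ran from -0.38 to 0.22 with a median of -0.02, 8 above 0 and 16 below. Over all genes tested the median was -0.00, with 6878 above 0 and 6958 below. Trim28 averaged 629 ± 35.7 CPM in PDTLN1 libraries and 642 ± 39.5 CPM in controls, and Setdb1 averaged 174 ± 4.12 CPM in PDTLN1 libraries and 168 ± 7.18 CPM in controls (SD, n = 3 each). The smallest p-values belonged to the chromatin remodeller genes Atrx and Chd3 and to Pphln1, whose product periphilin belongs to the HUSH silencing complex, with log2 fold changes of 0.08, -0.19 and 0.16 and SEs of 0.05, 0.15 and 0.14 (edgeR adjusted p 0.989 for each).

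The genes whose log2 CPM followed Zfp82 most closely over the 6 libraries were Med1, a subunit of the Mediator complex, at a Pearson correlation of 0.992, Ints12 of the Integrator complex at 0.985, Rnf123 at 0.981, Pla2g7 at 0.978 and Gm10311 at 0.977. Those that ran most opposite to Zfp82 were Dnaja3 at -0.990, Tatdn3 at -0.986, the potassium channel gene Kcnn3 at -0.985, Fam173a at -0.984 and the cell cycle inhibitor gene Cdkn1c at -0.983. Gm26920 stood at -0.848, as the 190th most opposite gene. These values describe 6 points that share depth and grouping. The genes differed in how far the groups stood apart. Med1 averaged 148 ± 0.578 CPM in PDTLN1 libraries and 136 ± 3.91 CPM in controls, and Kcnn3 averaged 1.13 ± 0.0780 CPM in PDTLN1 libraries and 3.79 ± 1.62 CPM in controls (SD, n = 3 each).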

How the data were processed

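RNA from 3 PDTLN1 and 3 control libraries of P19 cells was sequenced after an Illumina TruSeq RNA preparation, per the labels' protocols. The authors deposited whole-number counts per gene and library, not normalized, and FPKM values, per the file headers. The submitters' processing notes list Bowtie 0.12.2, mm8 and mm9, without saying what each was used for. The counter, its use of strand and its treatment of overlapping genes are not stated in these sources, so counts of overlapping rows are uncertain. Of 34267 identifiers found in GENCODE mouse M21 (GRCm38), 80.8% had the same position, and coordinates are given in that build. Of the members, 5 matched and Zfp14 and Zfp382 differed in extent.

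Samples were grouped by the treatment label and columns matched by title. The members and gene lists were chosen with earlier results of these data known. Counts were fitted with edgeR 4.0.16 in R 4.3.3 (filterByExpr, TMM, robust glmQLFit and glmQLFTest, Benjamini-Hochberg over 13836 genes, threshold 0.05). Each SE was derived from edgeR's F statistic as |log2 fold change| / √F. CPM used TMM-scaled library sizes, and correlations used log2 CPM with a prior count of 2. Spread within groups used log2 CPM with a pseudocount of 0.5. Promoter windows came from RefSeq (GRCm38.p6) and transcripts from GENCODE.

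Named are the members, rows overlapping them, the 5 genes most like and the 5 most opposite to Zfp82, the published targets Igf2, Gata4 and Nppa, and the 3 genes of smallest p among neighbours, co-repressors and zinc finger genes. Trim28, Setdb1, Zbtb9, Ggnbp1, Zfp708 and Gm28557 were named after their values were seen. So were Zfp84, Zfp940, Zfp383, Zfp420, Zfp30, Zfp790, Zfp74, Zfp146, Pcdhgb5, Pcdhga8 and Pcdhgc5. Alternatives were DESeq2 size factors, library size alone, the DESeq2 1.42.0 Wald test, no filter beyond 1 count, leaving out each library, a block for the replicate number, summed overlapping rows, FPKM with pseudocounts of 0.1 and 1, CPM per kilobase, and a prior count of 0.5.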

Additional observations from a re-analysis of the deposited data

How the results depend on the processing

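The number of genes called over the whole table was 3, and it was 8 with no filter beyond 1 count, 10 with the DESeq2 Wald test, 1 with the replicate block and 2 to 13 when 1 library was left out (leaving 13 when control 1 was dropped, 5 for control 3, 8 for PDTLN1 1 and 6 for PDTLN1 2). The zinc finger genes called numbered 0 to 1 when 1 library was left out, the 1 being Zfp708 without PDTLN1 library 1 (log2 fold change -3.96). No co-repressor or neighbour was called under any alternative run. The log2 fold change of Zfp82 was 0.92 to 1.42 when 1 library was left out and 0.35 on FPKM with a pseudocount of 1. That of Gm26920 was -4.55 to -3.19 when 1 library was left out and -1.52 on FPKM with a pseudocount of 1. Summing the 3 overlapping rows, as planned, gave -0.07. Chosen after seeing the data, the sum of Zfp82 and Gm26920 gave -0.16 and that of Zfp566 and Gm26920 -0.37. Also chosen then, levels per kilobase of exon covered once were 23.7 for Zfp568, 0.916 for Zfp82, 11 for Zfp566, 5.79 for Zfp260 and 4.59 for Zfp382, because the length divided by is shorter. The log2 fold change of Zfp260 was -0.81 to 0.20 and that of Zfp382 -0.19 to 0.21 when 1 library was left out. The 5 genes most like Zfp82 were the same 5 at a prior count of 0.5. Deviations from the group means correlated across genes at -0.359, -0.137 and -0.104 between the libraries numbered 1, 2 and 3, so the number was not taken as a pairing, and with the replicate block the log2 fold changes of Zfp82 and Gm26920 were 1.18 and -3.77. Depth limits the precision of Zfp82, Gm26920 and Zfp14, which had 0 to 94 counts per library.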

Other observations

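Among the other overlapping pairs with opposite differences were 2 with a zinc finger gene. Zbtb9 had 353, 375 and 405 counts in PDTLN1 libraries 1, 2 and 3, against 332, 80 and 46 counts in control libraries 1, 2 and 3. Ggnbp1, which overlaps it, had 57, 37 and 68 counts in PDTLN1 libraries 1, 2 and 3, against 50, 374 and 415 counts in control libraries 1, 2 and 3. Control library 1 stood with the PDTLN1 libraries for both rows. Their sum averaged 38.6 ± 2.47 CPM in PDTLN1 libraries and 40.2 ± 3.11 CPM in controls (SD, n = 3 each), less apart than the libraries of a group. Zfp708 and the overlapping Gm28557 were less even in their sum. Zfp708 had 56, 4 and 4 counts in PDTLN1 libraries 1, 2 and 3, against 61, 70 and 47 counts in control libraries 1, 2 and 3. Gm28557 had 91, 114 and 61 counts in PDTLN1 libraries 1, 2 and 3, against 12, 43 and 26 counts in control libraries 1, 2 and 3. Their sum averaged 10.0 ± 4.34 CPM in PDTLN1 libraries and 8.05 ± 2.22 CPM in controls (SD, n = 3 each).

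Gm26920 belongs to a set of 63 tested genes whose GENCODE transcripts are all marked as read-through. Of these, 5 (7.94%) had a log2 fold change beyond 1 in either direction, where 59 of all 13836 genes (0.426%) did. Between 1 and 10 CPM, 3 of 35 read-through genes (8.57%) and 35 of 3634 others (0.963%) lay beyond 1. In that range the median SD of log2 CPM within groups was 0.481 for the read-through genes and 0.268 for the others. Gm26920 is 1 of the genes counted, and no test was made.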
